A study of Mus musculus with 18 samples.

Results

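A group of 7 chemokine genes was followed through an RNA sequencing experiment in L929 cells, an established line of mouse fibroblasts. These genes, *Cxcl9*, *Cxcl10*, *Ccl2*, *Ccl3*, *Ccl4*, *Ccl5* and *Ccl7*, were taken from the count table by gene symbol, out of 57180 genes in all. The experiment had 6 groups of 3 libraries. Mock cells carried the label DMSO as their treatment. AOA cells received aminooxyacetic acid (AOA), an inhibitor of aminotransferases, at 0.5 mM. HT-DNA cells were transfected with herring testis DNA, which the cytosolic DNA sensor cGAS binds, at 0.5 µg/ml for 6 h, and HT-DNA+AOA cells had been given AOA 1 h before. The AOA+Asp and HT-DNA+AOA+Asp groups received 20 mM aspartate in addition. No group received aspartate without AOA, so an effect of aspartate here is always an effect on AOA-treated cells. None was labelled as given the transfection reagent without DNA, so an effect of HT-DNA cannot be told apart from one of transfection. All cells came from a single line, and the libraries of a group were separate cultures.

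Chemokines are small secreted proteins that draw leukocytes toward the cells that make them. CXCL9 and CXCL10 bind CXCR3 on activated T cells and natural killer cells, and their genes are well-known targets of interferon. CCL3, CCL4 and CCL5 draw T cells, macrophages and other leukocytes, whereas CCL2 and CCL7 bind CCR2 and bring monocytes out of the blood. In fibroblasts cGAS signals through STING to the kinase TBK1, which activates IRF3 and NF-κB, and both kinds of transcription factor, with the factors that interferon activates later, can act on chemokine genes.

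Library totals ran from 17901546 to 24057284 counts, and levels are given as CPM, counts scaled to a common library size by TMM factors. Fibroblast genes fixed as markers were expressed, with 7 of 8 over 1 CPM in some group. Their summed level was 4753 to 6891 CPM, most of it *Vim* and *S100a4*, and *Thy1* was near 0 in every group. Of 9 macrophage and leukocyte markers, *Ptprc*, *Adgre1* and *Cd3e* were at 0 in every library, and 2 (*Cd68* and *Cd79a*) reached 1 CPM in some group. The summed level of these 9 genes, nearly all of it *Cd68*, was 140.3 to 158.0 CPM with HT-DNA+AOA, 114.3 to 128.6 CPM with HT-DNA and 112.7 to 158.0 CPM over all libraries. *Cd68* was higher with HT-DNA+AOA than with HT-DNA by 0.28 ± 0.07 (adjusted p = 0.00346, edgeR), a call lost in a fit to those 6 libraries alone. In the same comparison 4 of the 7 tested fibroblast markers were lower, the most *Col1a2*, a collagen gene (-1.05 ± 0.06, adjusted p = 9.01e-11, edgeR), and 1, the fibronectin gene *Fn1*, was higher (0.82 ± 0.08, adjusted p = 1.91e-07, edgeR). The part of these marker changes in the chemokine results was not tested. Endothelial and epithelial markers stayed under 1 CPM in sum. A principal component analysis was made of the tested genes with at least 1 CPM in some group. The 3 HT-DNA libraries stood apart from the other groups on its second component (from -45.2 to -36.5). The response to DNA is therefore given below also between AOA-treated groups, which do not use those libraries. The AOA effect with HT-DNA, its difference from that without HT-DNA, and HT-DNA+AOA+Asp against HT-DNA do use them and carry the same limit. The 3 HT-DNA+AOA libraries ran from 41.1 to 62.6 on the first component and from -12.2 to 23.7 on the second. The chi-square of their counts per degree of freedom was 16.6 to 60.8 between pairs, against 2.69 to 12.1 in the other groups. With any of them left out, the 6 chemokines tested below were called for AOA and for aspartate in HT-DNA-treated cells.

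Of the 7 genes, 6 passed the filter on low counts and were tested with the 14263 genes that did so, and *Cxcl9* did not pass. A gene was called changed at a Benjamini-Hochberg adjusted p under 0.05 in edgeR's quasi-likelihood test, fitted to all 18 libraries, and p-values below are these adjusted values. Several comparisons share a group and are therefore not independent of each other. Differences are on the log2 scale with their standard error (SE), n = 3 in each group.

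The 7 genes differed in their level without HT-DNA. *Ccl2* and *Ccl7* were expressed in Mock cells, while the others were near 0 without HT-DNA. Of the others, *Ccl3* and *Cxcl9* stayed low with HT-DNA alone as well. *Ccl3* was at 0.312 CPM there against 0.337 CPM in Mock, and *Cxcl9* at 0.179 CPM against 0.0767 CPM, with overlapping groups. Per kilobase of annotated exon, the mean levels in Mock cells were 206.7 CPM for *Ccl2* and 130.1 CPM for *Ccl7*, and no other gene of the 7 reached 0.5 CPM per kilobase. With HT-DNA+AOA the order per kilobase was *Ccl2* (1311), *Ccl7* (983.3), *Ccl5* (129.1), *Cxcl10* (118.3), *Ccl4* (13.4), *Ccl3* (1.77) and *Cxcl9* (0.192). *Ccl5* and *Cxcl10* could not be ordered there beyond the spread between libraries. The summed level of all 7 genes was 339.9 ± 20.1 CPM in Mock cells, 940.1 ± 88.9 CPM with AOA, 817.4 ± 29.7 CPM with HT-DNA and 2681 ± 206.0 CPM with HT-DNA+AOA (SD, n = 3). With aspartate the sum was 375.6 ± 45.2 CPM without HT-DNA and 811.8 ± 16.1 CPM with it. *Ccl2* made up 69.2% of the sum in Mock cells and 55.7% with HT-DNA+AOA, and *Cxcl10* made up 0.0266% and 9.95%.

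**Figure D1:**
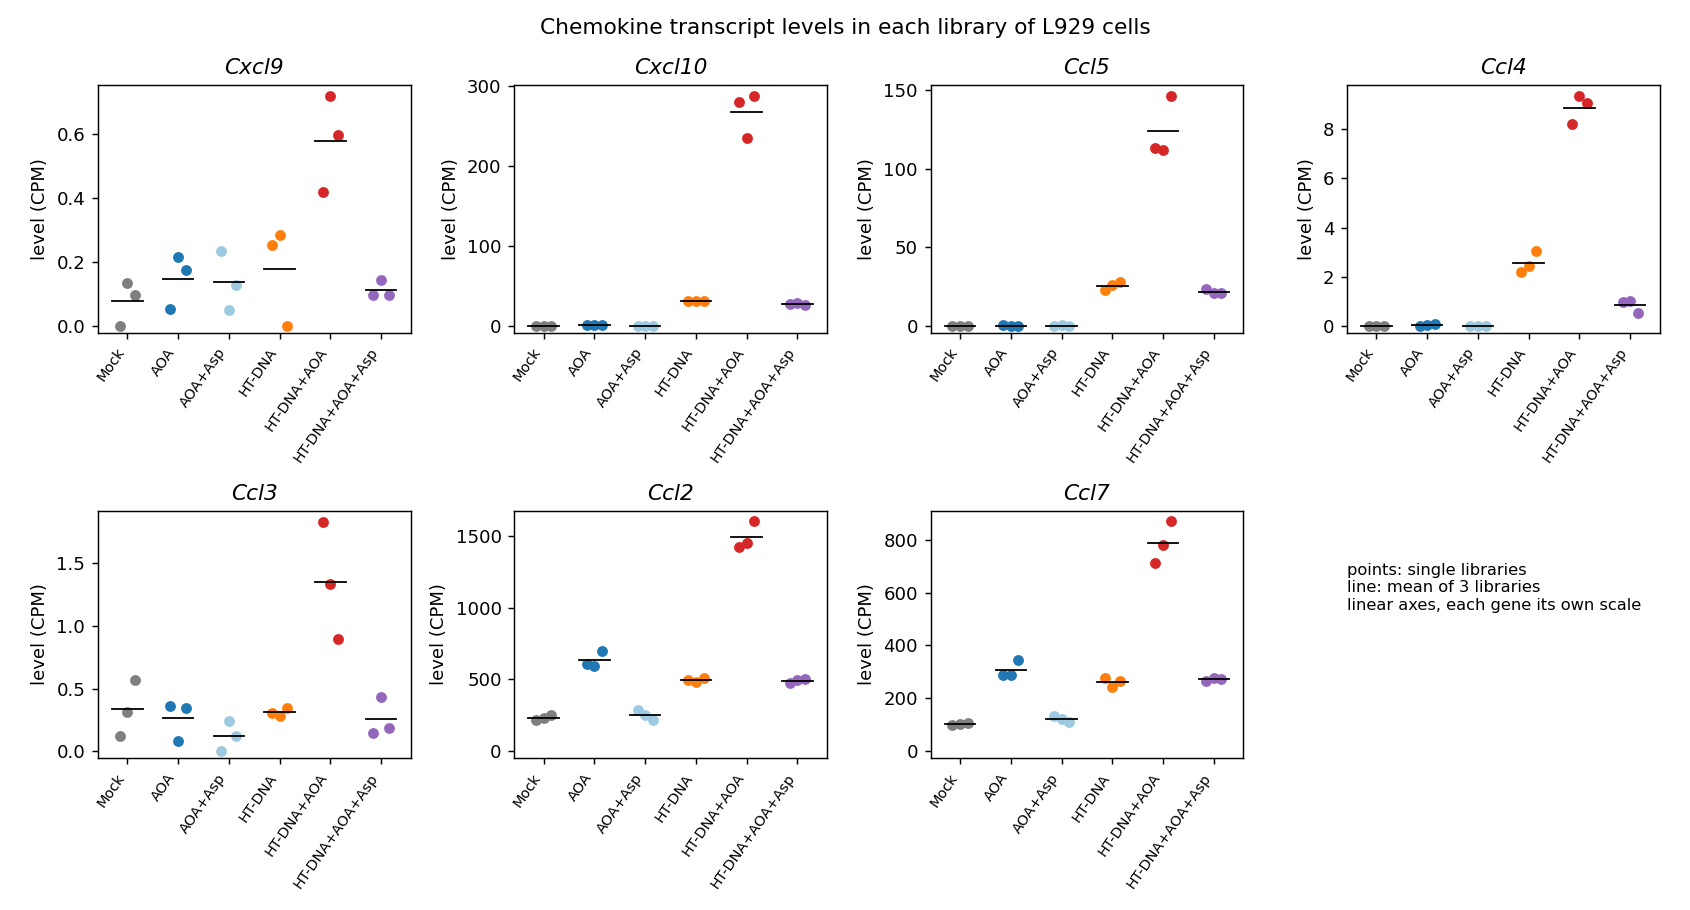
Level of each of the 7 genes (CPM, linear axis from about 0, each gene on its own scale) in every library of the 6 groups, with points for libraries and a line for the mean of 3. The 3 HT-DNA+AOA libraries lie above all other libraries for every gene. Without HT-DNA only *Ccl2* and *Ccl7* are over 1 CPM, though on its own scale *Ccl3* is visibly above 0 in Mock (mean 0.337 CPM).

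The CXCR3 ligands are described first. The RefSeq promoter table (GRCm38.p6) held 3 of the 7 genes, *Cxcl10*, its neighbour *Cxcl9* and *Ccl3*. The 250 bases before the transcription start are shown for all 3. *Cxcl10* moved from near 0 to over 200 CPM, and the other genes shown stayed low in the same cells. No window was at hand for *Ccl2*, *Ccl4*, *Ccl5* and *Ccl7*, so a relation between motifs and induction was not tested. Each sequence reads 5′ to 3′ on the strand of the gene, and capitals mark matches on either strand to the NF-κB motif, the interferon-stimulated response element (ISRE) core, which is GAAA, any 2 bases and GAAA, the AP-1 motif TGANTCA or the TATA box TATAAA.
Cxcl10, chr5:92348890-92349139, minus strand: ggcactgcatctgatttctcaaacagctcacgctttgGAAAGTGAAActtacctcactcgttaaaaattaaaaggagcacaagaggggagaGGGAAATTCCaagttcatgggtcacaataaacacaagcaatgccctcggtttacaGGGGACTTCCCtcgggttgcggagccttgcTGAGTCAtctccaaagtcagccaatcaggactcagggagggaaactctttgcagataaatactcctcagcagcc
Cxcl9, chr5:92328080-92328329, minus strand: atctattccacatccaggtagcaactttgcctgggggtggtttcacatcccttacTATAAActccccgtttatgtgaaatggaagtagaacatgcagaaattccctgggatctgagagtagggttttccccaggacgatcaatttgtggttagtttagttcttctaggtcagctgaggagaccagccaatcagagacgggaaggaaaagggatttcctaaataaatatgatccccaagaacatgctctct
Ccl3, chr11:83649379-83649628, minus strand: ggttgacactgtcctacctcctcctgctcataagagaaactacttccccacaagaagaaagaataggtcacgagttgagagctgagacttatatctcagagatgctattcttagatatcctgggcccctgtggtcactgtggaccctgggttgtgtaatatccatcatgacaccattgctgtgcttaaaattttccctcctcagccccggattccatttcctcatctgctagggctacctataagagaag

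In the *Cxcl10* window the ISRE core GAAAGTGAAA began 213 bases before the start. An NF-κB match, GGGAAATTCC, began 159 bases before it, and a second stretch, GGGGACTTCCC, which holds 2 overlapping NF-κB matches, began 104 bases before it. The AP-1 match TGAGTCA began 74 bases before the start, and TATAAA was not found in the window. In the *Cxcl9* window the only match was TATAAA, 195 bases before the start, and in the *Ccl3* window there was none. Of 32851 promoters in the table, 7.25% held an NF-κB match in the same 250 bases, 2.98% an ISRE core, 6.75% an AP-1 match and 12.4% TATAAA. At least 2 separate NF-κB stretches, as in *Cxcl10*, were found in 0.396%. Only 5 promoters (0.0152%) held NF-κB, ISRE and AP-1 matches together, a combination counted after the *Cxcl10* window had been read. A match describes the letters of the window and not a bound site.

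*Cxcl10* was nearly silent without HT-DNA. It had 0, 4 and 2 counts in the 3 Mock libraries, 11, 7 and 6 with AOA, and 0, 0 and 2 with AOA+Asp. The 3 AOA libraries lay above all Mock and AOA+Asp libraries, at levels under 1 CPM. AOA alone raised *Cxcl10* by 2.09 ± 0.60 (adjusted p = 0.00764, edgeR), from 0.0917 ± 0.0902 to 0.406 ± 0.143 CPM (SD), and aspartate lowered it again. The AOA value was 1.49 without Mock replicate 1 and 3.0 without Mock replicate 2, and passed in both cases. The summed counts with AOA were 13.2 times those with AOA+Asp after scaling (95% interval 3.27 to 114.9, counting error only), with an adjusted p of 0.000907 in edgeR. With HT-DNA it stood at 30.7, 30.6 and 31.2 CPM, a difference from Mock of 8.33 ± 0.25 (adjusted p = 1.48e-14, edgeR). That value rests on 6 Mock counts and was 7.74 without Mock replicate 1 and 9.25 without Mock replicate 2.

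In cells given both agents *Cxcl10* reached 278.9, 234.2 and 286.4 CPM, and with aspartate added it returned to 26.8, 28.0 and 25.4 CPM. The groups with and without AOA did not overlap. AOA raised the level in HT-DNA-treated cells 8.64-fold (3.11 ± 0.12, adjusted p = 2.72e-13, edgeR), and aspartate lowered it 9.97-fold (-3.32 ± 0.12, adjusted p = 1.93e-13, edgeR). The 3 HT-DNA+AOA+Asp libraries were each below the 3 HT-DNA libraries, but the difference of -0.21 did not pass the test across all genes (95% interval -0.45 to 0.03, adjusted p = 0.149, edgeR). In a fit to those 6 libraries alone it did pass. Between AOA-treated groups, without the HT-DNA libraries, DNA raised *Cxcl10* by 9.35 ± 0.19 (adjusted p = 1.36e-17, edgeR). With aspartate present the summed counts with DNA were 876.9 times those without (95% interval 242.4 to 7247). In the mouse annotation 133 bases of *Cxcl10* exons overlap *Art3* on the other strand, and 4.47% of its 31-base stretches occur in other genes.

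*Cxcl9*, known chiefly as a target of interferon gamma, stayed at the edge of detection. It had 0, 3 and 2 counts in Mock, 1, 5 and 3 with AOA, 5, 1 and 3 with AOA+Asp, and 5, 6 and 0 with HT-DNA. With HT-DNA+AOA it had 8, 14 and 10 counts, and with aspartate added 2, 3 and 2. The HT-DNA+AOA libraries lay above all 15 other libraries at 0.578 ± 0.151 CPM, against 0.179 ± 0.156 CPM with HT-DNA and 0.112 ± 0.0281 CPM with HT-DNA+AOA+Asp (SD). With no filter on low counts the difference from HT-DNA was 1.67 (adjusted p = 0.0677, edgeR) and that of aspartate was -2.30 (adjusted p = 0.0104, edgeR). *Cxcl9* reached 10 counts only in HT-DNA+AOA libraries, so it could pass the filter only through the group where it is high. It did so in some fits that left out a library, whose values are given as description. Its difference from HT-DNA was then 2.22 without HT-DNA replicate 2 (adjusted p = 0.0357, edgeR) and 1.89 without HT-DNA+AOA replicate 1 (adjusted p = 0.0317, edgeR). It was 2.02 without HT-DNA replicate 1 (adjusted p = 0.0534, edgeR) and 1.08 without HT-DNA replicate 3 (adjusted p = 0.161, edgeR), and passed in neither.

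*Ccl5*, *Ccl4* and *Ccl3* differed widely in level. *Ccl5*, which in many cells is a late gene of the interferon and NF-κB response, had 0 counts in all 3 Mock libraries, 5, 1 and 0 with AOA, and 0, 3 and 0 with AOA+Asp. With HT-DNA it stood at 22.9, 26.1 and 27.7 CPM, with HT-DNA+AOA at 113.5, 112.3 and 146.2 CPM, and with HT-DNA+AOA+Asp at 23.4, 21.0 and 20.6 CPM. The HT-DNA+AOA libraries lay above all others, and those with aspartate overlapped the HT-DNA libraries. *Ccl5* was at least 189.6-fold higher with HT-DNA than in Mock cells, taking 3 counts in each Mock library as the floor (adjusted p = 1.86e-11, edgeR).

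AOA raised *Ccl5* in HT-DNA-treated cells 4.84-fold (2.28 ± 0.15, adjusted p = 2.84e-09, edgeR) and aspartate lowered it 5.73-fold (-2.52 ± 0.15, adjusted p = 1.59e-09, edgeR). The HT-DNA+AOA+Asp and HT-DNA groups differed by -0.24, with a 95% interval of -0.56 to 0.08 (adjusted p = 0.202, edgeR). That difference too passed in a fit to the 6 libraries alone. Between the AOA-treated groups DNA raised *Ccl5* by 10.2 ± 0.30 (adjusted p = 1.21e-13, edgeR), a value that rests on 6 counts with AOA and was 11.98 without AOA replicate 1. With AOA+Asp as the base the ratio of summed counts was 473.1 (95% interval 161.5 to 2297). No fold is given between the groups without HT-DNA, whose counts over 3 libraries did not exceed the floor.

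*Ccl4*, whose product is a close relative of CCL3, was lower than *Ccl5* in every group with HT-DNA. It had no count in the Mock and AOA+Asp libraries and 0, 1 and 1 with AOA. It stood at 2.17, 2.42 and 3.06 CPM with HT-DNA, 8.20, 9.34 and 9.06 CPM with HT-DNA+AOA, and 0.967, 1.01 and 0.521 CPM with HT-DNA+AOA+Asp, and none of these 3 groups overlapped. HT-DNA raised it at least 18.9-fold over Mock (adjusted p = 1.58e-07, edgeR), and AOA raised it a further 3.46-fold (1.79 ± 0.22, adjusted p = 8.32e-06, edgeR). Aspartate then lowered *Ccl4* 10.6-fold (-3.41 ± 0.25, adjusted p = 5.78e-08, edgeR), to a level 3.06-fold below HT-DNA alone (-1.61 ± 0.26, 95% interval -2.18 to -1.05, adjusted p = 0.000312, edgeR). It was the only tested gene of the 6 to end below HT-DNA by this test. Between AOA-treated groups the summed *Ccl4* counts with DNA were 265.1 times those without (95% interval 73.0 to 2195), and with aspartate *Ccl4* was at least 6.05-fold higher with DNA than without.

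*Ccl3* was low in every group. Its counts were 3, 7 and 12 in Mock, 7, 2 and 6 with AOA, 0, 5 and 3 with AOA+Asp, and 6, 6 and 8 with HT-DNA. With HT-DNA+AOA they were 35, 26 and 15, and with aspartate added 3, 9 and 4. *Ccl3* passed the filter on low counts only through the HT-DNA+AOA libraries. HT-DNA alone gave no detectable change at this depth (-0.08, 95% interval -1.40 to 1.24, adjusted p = 0.926, edgeR). The HT-DNA+AOA libraries, at 1.83, 1.34 and 0.895 CPM, did not overlap with any other group, and *Ccl3* was higher there than with HT-DNA 4.28-fold (2.10 ± 0.54, adjusted p = 0.00342, edgeR). Aspartate lowered it 5.22-fold (-2.38 ± 0.56, adjusted p = 0.00174, edgeR), a value that was -2.98 without HT-DNA+AOA+Asp replicate 2. The difference between HT-DNA+AOA and AOA, 2.39 ± 0.56 (adjusted p = 0.00756, edgeR), was 1.92 and did not pass without AOA replicate 2. In the RefSeq annotation the spans of the *Ccl3* and *Ccl4* genes overlap by 755 bases, in the GENCODE annotation their exons do not, and the use of strand in counting is not given in the sources used here.

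The CCR2 ligands *Ccl2* and *Ccl7*, neighbouring genes of the CC chemokine cluster, were the only pair with a level of their own in resting cells. *Ccl2* stood at 220.9, 231.7 and 253.0 CPM in Mock, 610.3, 591.0 and 697.4 CPM with AOA, and 285.0, 251.7 and 220.2 CPM with AOA+Asp. The AOA libraries lay above the other 6, and the AOA+Asp and Mock libraries overlapped. AOA alone raised *Ccl2* 2.69-fold (1.43 ± 0.09, adjusted p = 5.47e-10, edgeR), and aspartate lowered it 2.51-fold (-1.33 ± 0.09, adjusted p = 1.79e-09, edgeR), to a level 0.10 from Mock (95% interval -0.08 to 0.28, adjusted p = 0.560, edgeR). With HT-DNA it stood at 494.8, 481.0 and 510.2 CPM, 2.11-fold over Mock (1.07 ± 0.09, adjusted p = 8.50e-08, edgeR).

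With both agents *Ccl2* reached 1422, 1451 and 1604 CPM, and with aspartate added 476.2, 493.0 and 502.5 CPM. The last group overlapped with HT-DNA alone. AOA raised *Ccl2* in HT-DNA-treated cells 3.01-fold (1.59 ± 0.09, adjusted p = 8.68e-11, edgeR), aspartate lowered it 3.04-fold (-1.60 ± 0.09, adjusted p = 9.11e-11, edgeR), and the group with aspartate was within -0.20 to 0.17 of HT-DNA alone (95% interval, adjusted p = 0.907, edgeR). DNA raised *Ccl2* 2.36-fold in AOA-treated cells (adjusted p = 4.62e-09, edgeR) and 1.95-fold in cells with AOA and aspartate (adjusted p = 7.24e-07, edgeR).

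*Ccl7* ran beside *Ccl2* in every group. It stood at 100.6, 104.2 and 107.7 CPM in Mock, 287.9, 287.1 and 343.5 CPM with AOA, and 135.5, 123.8 and 109.7 CPM with AOA+Asp. With HT-DNA it stood at 278.7, 242.9 and 266.3 CPM, with HT-DNA+AOA at 711.9, 780.4 and 870.5 CPM, and with HT-DNA+AOA+Asp at 265.6, 276.0 and 273.2 CPM. Only the last group and HT-DNA alone overlapped among the pairs compared. AOA alone raised *Ccl7* 2.94-fold (1.56 ± 0.09, adjusted p = 2.79e-10, edgeR), HT-DNA alone 2.52-fold (1.33 ± 0.09, adjusted p = 9.84e-09, edgeR) and AOA in HT-DNA-treated cells by 1.58 on the log2 scale (SE 0.09, adjusted p = 1.17e-10, edgeR). Aspartate lowered it 2.49-fold without HT-DNA (-1.32 ± 0.09, adjusted p = 3.38e-09, edgeR) and 2.90-fold with HT-DNA (-1.54 ± 0.09, adjusted p = 2.70e-10, edgeR). The AOA+Asp libraries lay above the Mock libraries by 0.24 (95% interval 0.05 to 0.43, adjusted p = 0.128, edgeR), which passed only in a fit to those 6 libraries alone. With HT-DNA+AOA+Asp the level was within -0.14 to 0.24 of HT-DNA alone (95% interval, adjusted p = 0.685, edgeR). DNA raised *Ccl7* 2.57-fold in AOA-treated cells (adjusted p = 2.07e-09, edgeR) and 2.21-fold with aspartate present (adjusted p = 1.01e-07, edgeR).

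**Figure D2:**
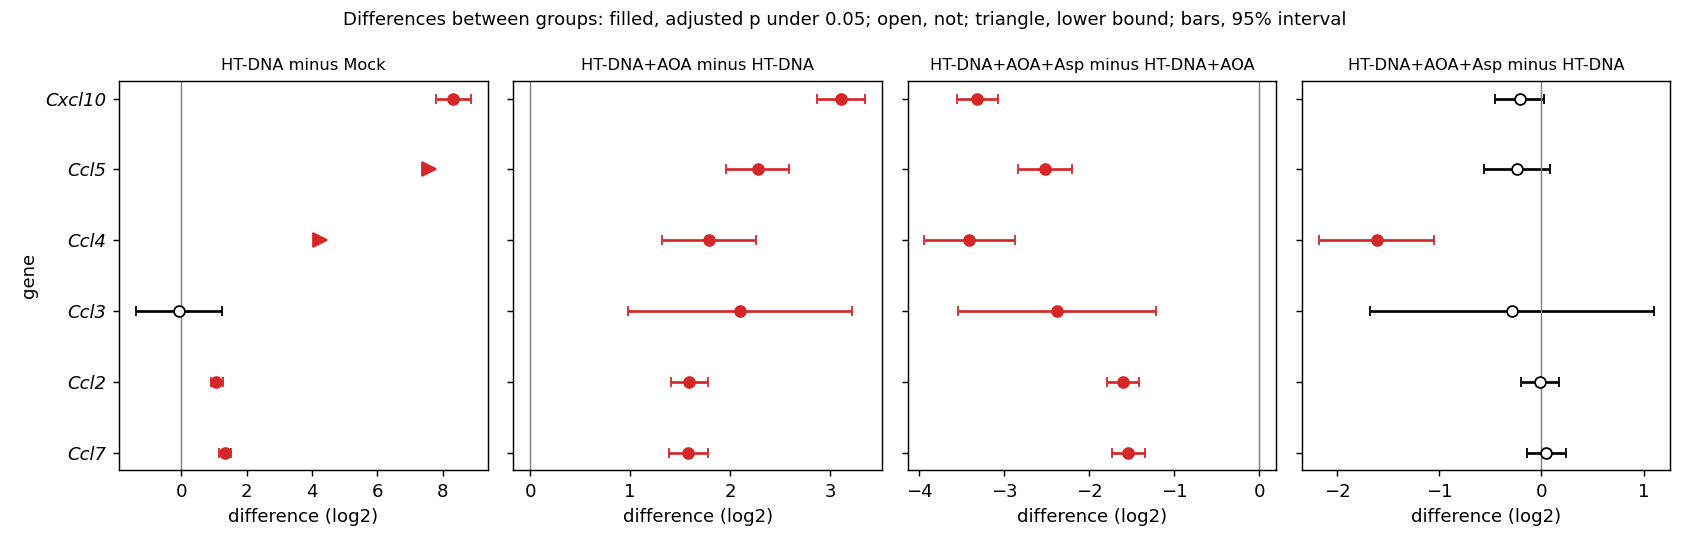
Difference between groups (log2) for the 6 tested genes in 4 comparisons, with 95% intervals as bars, filled points where the adjusted p was under 0.05, open points where it was not, and triangles for the lower bounds of *Ccl5* and *Ccl4*, which had 0 counts in Mock. In the rightmost panel *Ccl4* is the only filled point, at -1.61.

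Counted by comparison, HT-DNA against Mock raised 5 of the 6 tested genes and lowered none, where 24.2% of all tested genes were called higher and 24.0% lower. The median difference of the 6 genes was 4.83, or 2.79 with *Ccl4* and *Ccl5* at their bounds, and that of all genes was -0.008. AOA against Mock raised 3 (*Cxcl10*, *Ccl2* and *Ccl7*) and lowered none, against 22.4% higher and 23.3% lower among all genes. *Ccl5*, with 6 counts over the AOA libraries and none in Mock, passed too with DESeq2, with no filter on low counts, and without AOA replicate 3. Aspartate in AOA-treated cells lowered the same 3 and raised none, against 22.8% lower and 23.5% higher. AOA+Asp and Mock differed in none of the 6 genes by edgeR, where 2.52% of all genes were higher and 3.95% lower. *Ccl7* alone had an unadjusted p under 0.05 there, and DESeq2 called none either.

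AOA in HT-DNA-treated cells raised all 6 tested genes and lowered none, where 22.8% of all genes were higher and 22.7% lower. Among the 6, *Ccl3* passed the filter only through its HT-DNA+AOA counts. Its calls in comparisons with that group, here and below, carry that selection and are no separate support. The median of the 6 was 1.94 and that of all genes 0.024. Aspartate lowered all 6 and raised none, against 23.9% lower and 23.7% higher among all genes, with medians of -2.45 and -0.012. HT-DNA+AOA+Asp against HT-DNA lowered 1 and raised none, against 23.5% lower and 23.2% higher, and a fit to those 6 libraries alone lowered 3 by adding *Cxcl10* and *Ccl5*. With AOA in both groups DNA raised all 6 tested genes, where 6.46% of all genes were higher and 6.98% lower. With AOA and aspartate in both groups DNA raised 5, all but *Ccl3*, where 1.93% of all genes were higher and 1.52% lower. That share of all genes is far under the one called between HT-DNA and Mock, whereas the count among the chemokines was the same.

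Whether AOA acted differently in the presence of HT-DNA was tested as an interaction, the difference between the AOA effect with HT-DNA and without it. None of the 6 genes passed by edgeR, where 7.23% of all genes had a higher and 8.26% a lower AOA effect with HT-DNA. For *Ccl2* the interaction was 0.16 (95% interval -0.09 to 0.42, adjusted p = 0.368, edgeR) and for *Ccl7* 0.03 (-0.24 to 0.30, adjusted p = 0.895, edgeR), and these intervals bound how far the AOA effects on the log2 scale differed between cells with and without HT-DNA. For *Ccl3* it was 2.47 ± 0.86 (adjusted p = 0.0576, edgeR), with an unadjusted p under 0.05. It passed with DESeq2 and with no filter on low counts, and when Mock replicate 1 or HT-DNA+AOA replicate 3 was left out. As *Ccl3* passed the filter only through its HT-DNA+AOA counts, which this interaction uses, these values are description and no separate support. For *Cxcl10*, *Ccl4* and *Ccl5* the AOA effect without HT-DNA rests on 24 counts or fewer over 3 libraries, and the interaction could not be fixed at this depth.

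The same test for aspartate, its effect in AOA-treated cells with HT-DNA less that without, also called none of the 6 genes by edgeR or DESeq2, where 0.266% of all genes were higher and 0.785% lower. For *Ccl2* it was -0.28 (95% interval -0.53 to -0.02, adjusted p = 0.418, edgeR), with an unadjusted p under 0.05, and for *Ccl7* -0.22 (-0.49 to 0.05, adjusted p = 0.602, edgeR).

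Ratios of counts within a library do not depend on scaling and show where genes that rise together part. *Ccl7* counts per *Ccl2* count lay between 0.426 and 0.563 in all 18 libraries. The mean ratio was 0.444 ± 0.0157 in Mock, 0.483 ± 0.0106 with AOA and 0.530 ± 0.0298 with HT-DNA (SD, n = 3), and neither treated group overlapped with Mock. It was 0.489 ± 0.0117 with AOA+Asp, 0.527 ± 0.0231 with HT-DNA+AOA and 0.554 ± 0.00872 with HT-DNA+AOA+Asp, also above all Mock libraries. *Cxcl10* counts per *Ccl5* count were 1.21 ± 0.111 with HT-DNA, 2.17 ± 0.258 with HT-DNA+AOA and 1.24 ± 0.0916 with HT-DNA+AOA+Asp. The HT-DNA+AOA libraries overlapped with neither of the others, and the other 2 groups overlapped. *Ccl5* counts per *Ccl4* count were 10.1 ± 0.938, 13.99 ± 2.05 and 28.1 ± 9.94 in the same order, with no overlap between groups. Of the 11 comparisons of ratios that were tested, 8 had no overlap. Each of these 8 gave a 2-sided exact permutation p of 0.1, the smallest that 3 against 3 libraries allow (0.138 after Benjamini-Hochberg adjustment over the 11).

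**Figure D3:**
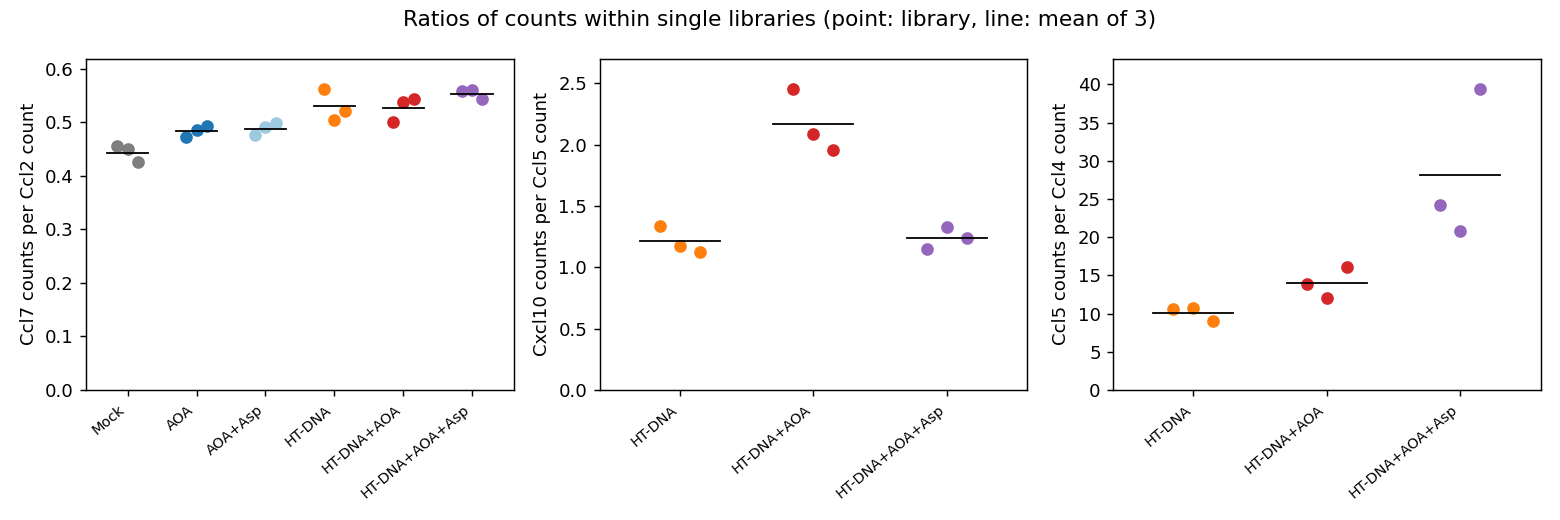
Ratio of counts of a pair of genes within each library (linear axes from 0), for *Ccl7* to *Ccl2* in 6 groups and for *Cxcl10* to *Ccl5* and *Ccl5* to *Ccl4* in the 3 groups with HT-DNA. Points are libraries and lines means of 3, and the mean *Cxcl10* to *Ccl5* ratio is 2.17 with HT-DNA+AOA against 1.21 and 1.24 in the groups beside it.

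The genes closest in course over the 18 libraries were sought by the root mean square difference between centred log2 CPM values, which is a description of shared treatment and not of shared control. For *Ccl2* the nearest was *Ccl7* at 0.11, and *Oas1g*, an interferon-stimulated oligoadenylate synthetase, was also near at 0.31. *Ccl7* had *Ccl2* as its nearest and *Oas1g* at the same distance of 0.31. For *Cxcl10* they were *Ccl5* (0.76), *Rsad2* (1.01) and *Ifit1* (1.14), and for *Ccl5* they were *Cxcl10* (0.76), *Ifit1* (0.81) and *Rsad2* (0.90), the last pair being antiviral genes induced by interferon. For *Ccl4* they were *Rtp4* (0.49), *Zbp1* (0.62) and *Isg15* (0.63), all 3 interferon-stimulated genes. For *Ccl3* they were *Helz2*, *Scara3* and *Parp10* at 0.59 to 0.60. The SD of a gene's own log2 CPM over the libraries was 1.05 for *Ccl3*, 0.92 for *Ccl2*, 0.99 for *Ccl7*, 2.63 for *Ccl4*, 4.38 for *Ccl5* and 4.39 for *Cxcl10*. The distances are therefore not to be ranked between these genes. With a prior count of 0.5 in place of 2, 1 of 3 nearest genes remained for *Ccl4*, 1 of 3 for *Ccl3* and 2 of 3 for *Cxcl10*.

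Other chemokine ligands were mostly silent. Of 31 listed, 10 were at 0 in every library and 9 were tested. AOA in HT-DNA-treated cells raised 6 of these 9 and lowered none, where 22.8% of all genes were higher and 22.7% lower, with a median of 2.54 against 0.024 for all genes. *Cxcl11*, the remaining CXCR3 ligand, was at 0 in Mock, at 0.113 ± 0.0598 CPM with HT-DNA, 2.94 ± 0.0614 CPM with HT-DNA+AOA and 0.207 ± 0.0986 CPM with HT-DNA+AOA+Asp (SD). It was higher with AOA (4.67 ± 0.45, adjusted p = 6.20e-07, edgeR) and lower with aspartate (-3.79 ± 0.40, adjusted p = 2.71e-06, edgeR). *Cxcl11*, too, passed the filter only through the HT-DNA+AOA libraries. The neutrophil attractant *Cxcl1* resembled the CCR2 ligands in having a level in Mock, 170.1 ± 3.06 CPM, and stood at 160.0 ± 5.83 CPM with HT-DNA alone. AOA raised it to 533.5 ± 80.8 CPM (1.65 ± 0.09, adjusted p = 9.45e-11, edgeR) and with HT-DNA to 930.6 ± 58.7 CPM (2.54 ± 0.09, adjusted p = 2.16e-13, edgeR). Aspartate brought *Cxcl1* to 116.3 ± 6.19 CPM, 0.46 below HT-DNA alone on the log2 scale (adjusted p = 0.000618, edgeR).

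The receptors were all but absent from these cells. *Cxcr3*, *Ccr3* and *Ackr1* were at 0 in every library, and of 8 receptors and scavengers only *Ccrl2*, an atypical receptor that binds the attractant chemerin, was tested. It stood at 0.298 ± 0.0616 CPM in Mock, 1.77 ± 0.200 CPM with HT-DNA, 15.5 ± 1.38 CPM with HT-DNA+AOA and 2.18 ± 0.301 CPM with HT-DNA+AOA+Asp. HT-DNA raised it by 2.53 ± 0.28 (adjusted p = 2.47e-06, edgeR), AOA by a further 3.14 ± 0.19 (adjusted p = 1.74e-10, edgeR), and aspartate lowered it by -2.83 ± 0.18 (adjusted p = 7.58e-10, edgeR).

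Of 17 genes listed as inducers of these chemokines 16 were tested. AOA in HT-DNA-treated cells raised 11 of them and lowered 2, with a median of 0.56, where 22.8% of all genes were higher and 22.7% lower. Aspartate then lowered 13 and raised 2, against 23.9% and 23.7% of all genes. *Irf7*, an interferon-induced transcription factor gene, went from 4.83 ± 0.247 to 24.3 ± 4.12 CPM (2.33 ± 0.14, adjusted p = 2.48e-10, edgeR). *Sting1*, the adaptor of cGAS, fell by 0.66 on the log2 scale (adjusted p = 9.46e-05, edgeR). *Tbk1* fell by 0.31 (adjusted p = 0.0225, edgeR), with overlapping groups and a call lost without HT-DNA replicate 2, HT-DNA+AOA replicate 2 or HT-DNA+AOA replicate 3. *Ifnb1*, the interferon-beta gene, was at 0 in Mock, AOA, AOA+Asp and HT-DNA libraries, at 0.213 CPM with HT-DNA+AOA and at 0.0161 CPM with aspartate added, and was not tested. AOA alone raised 4 of the 16 and lowered 5, shares near the 22.4% and 23.3% of all genes. The NF-κB subunit genes *Relb* (1.52 ± 0.14, adjusted p = 5.80e-08, edgeR) and *Nfkb2* (0.99 ± 0.08, adjusted p = 3.10e-08, edgeR) were among the 4, and *Irf1* among the 5 (-0.71 ± 0.10, adjusted p = 1.13e-05, edgeR).

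Of 11 genes listed as restraints on chemokine expression 10 were tested, and AOA in HT-DNA-treated cells raised 4 and lowered 4, where 22.8% of all genes were higher and 22.7% lower. *Usp18*, a brake on the interferon receptor, rose from 6.18 ± 0.488 to 43.3 ± 7.37 CPM (2.81 ± 0.16, adjusted p = 8.95e-11, edgeR), and *Nfkbia*, which encodes the NF-κB inhibitor IκBα, rose by 0.69 ± 0.09 (adjusted p = 4.06e-06, edgeR). *Socs3*, an inhibitor of cytokine receptor signalling, fell from 56.7 ± 4.53 to 18.9 ± 1.57 CPM (-1.59 ± 0.09, adjusted p = 9.01e-11, edgeR), and *Zfp36*, whose product speeds the decay of cytokine mRNAs, fell by 0.51 on the log2 scale (adjusted p = 0.00288, edgeR). *Socs3* was also lower with AOA in cells without HT-DNA. It stood there at 46.2 ± 1.35 CPM in Mock, 15.5 ± 1.32 CPM with AOA and 19.55 ± 1.69 CPM with AOA+Asp. With HT-DNA, too, *Socs3* remained low with aspartate, and HT-DNA+AOA+Asp cells had 22.6 ± 0.933 CPM, -1.32 ± 0.09 from HT-DNA alone (adjusted p = 1.62e-08, edgeR). Between those 2 groups 8 of the 10 restraints were lower and 1 higher, against 23.5% and 23.2% of all genes.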

How the data were processed

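RNA from L929 cells (6 groups of 3 libraries) was sequenced by the authors, who deposited 1 table of estimated counts per gene with group means. Aligner, counter, build and use of strand are not given in the sources used here. The deposited expected counts are not all whole (11.6% of values are not) and were rounded. The pooled columns of group means were not used. Genes were filtered with filterByExpr (minimum count 10, minimum total 15), scaled by TMM (factors 0.918 to 1.07) and fitted in edgeR 4.0.16 (robust quasi-likelihood, 1 term per group, all 18 libraries, Benjamini-Hochberg adjustment, R 4.3.3). The procedure was also run on simulated data in which genes changed in a single group and every group had the same spread. That run does not cover the wider spread between the HT-DNA+AOA libraries or changes in many groups. The p-values rest on 1 estimate of the spread between cultures for each gene, shared over the 6 groups of 3 and moderated across genes. They do not measure the spread within the 2 compared groups alone. The HT-DNA+AOA libraries, which agreed least with each other, are given the same spread as the rest. DESeq2 1.42.0, other scalings and filters, fits to fewer libraries, a replicate block and leaving out each library were alternatives. The replicate numbers did not pair libraries (at least 1 correlation of same-numbered deviations under 0.1) except between HT-DNA+AOA and AOA (0.421, 0.111 and 0.205), where the block left 6 genes called. No 2 libraries of a group agreed within sampling noise. A value of 0 allows up to 3 counts per library. Intervals and floors cover counting error only where so stated, and otherwise come from the fit.

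The genes described and the gene lists were chosen with earlier results of these data known. The genes named are the 7 chemokines, those of the 3 tested genes nearest to each in course, among genes of at least 1 CPM in some group, that are reported here, and members of the lists of ligands, receptors, inducers and restraints, and of the markers, of which those given values were picked after their values were seen. Exon lengths came from GENCODE (GRCm38) and promoters from RefSeq (GRCm38.p6). Some genes are not reported here.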

Additional observations from a re-analysis of the deposited data

Results flagged for a closer look

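Several genes outside the 7 chemokines passed the test of a difference in effect between cells with and without HT-DNA (edgeR, adjusted p under 0.05), and some are given here with their values. Of all tested genes, 7.23% had a higher and 8.26% a lower AOA effect with HT-DNA, and 0.266% a higher and 0.785% a lower aspartate effect. Among the listed genes *Cx3cl1* and *Vim* were called lower for AOA, and *Pdgfrb* higher for aspartate, against the direction of those given below. Beside HT-DNA, the AOA value was more positive than without it, by 3.22 on the log2 scale for *Ccrl2* (adjusted p = 0.000168, edgeR), 0.89 for *Cxcl1* (adjusted p = 0.000203, edgeR), 1.28 for *Cxcl2* (adjusted p = 0.000109, edgeR) and 2.13 for *Irf7* (adjusted p = 1.46e-05, edgeR). It was so by 1.38 for *Irf1* (adjusted p = 4.87e-06, edgeR), 2.48 for *Usp18* (adjusted p = 5.38e-05, edgeR), 0.76 for *Zfp36* (adjusted p = 0.0122, edgeR), 0.45 for *Tbk1* (adjusted p = 0.0468, edgeR) and 0.30 for *Cd68* (adjusted p = 0.0495, edgeR). The aspartate value was more negative with HT-DNA, by -2.42 for *Irf7* (adjusted p = 1.91e-05, edgeR), -1.54 for *Irf1* (adjusted p = 7.28e-06, edgeR) and -2.20 for *Usp18* (adjusted p = 0.00302, edgeR). It was so by -1.16 for *Zfp36* (adjusted p = 0.00371, edgeR), -0.56 for *Nfkbia* (adjusted p = 0.0400, edgeR) and -2.23 for *Ccrl2* (adjusted p = 0.0365, edgeR). The values of *Tbk1*, *Cd68* and *Nfkbia*, and that of *Ccrl2* for aspartate, did not pass in a fit to the libraries compared or with most single libraries left out. The *Ccrl2* value for aspartate (-2.24) and the *Cd68* value also did not pass with the replicate block.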

How the results depend on the processing

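Of 951 values from other settings, 898 kept their direction and their side of the threshold (counts within 1.5 times), as did 861 of 930 values with 1 library left out. Requiring at least 10 counts in every library left *Ccl2* and *Ccl7* to test: 2 genes were then called for HT-DNA against Mock, for AOA and for aspartate in HT-DNA-treated cells, and for DNA with AOA or with AOA and aspartate in both groups, and 0 for HT-DNA+AOA+Asp against HT-DNA. A fit to the libraries compared called 1 gene for AOA+Asp against Mock and 3 for HT-DNA+AOA+Asp against HT-DNA. The interaction of AOA with HT-DNA called 1 gene (*Ccl3*) with DESeq2 and with no filter on low counts, and 0 to 1 with a library left out. With library totals in place of TMM, *Ccl2* in HT-DNA+AOA+Asp against HT-DNA changed sign to 0.038. With a library left out, sign changes occurred in differences that had not passed. These were *Ccl3* with HT-DNA (-0.48 to 0.50) and AOA (-0.78 to 0.21) against Mock, *Ccl5* with aspartate in AOA-treated cells (-4.15 to 0.75), HT-DNA+AOA+Asp against HT-DNA for *Ccl2* (-0.044 to 0.0074) and *Ccl7* (-0.014 to 0.092), and the interactions of AOA for *Ccl7* (-0.050 to 0.12) and of aspartate for *Cxcl10* (-0.32 to 2.76) and *Ccl5* (-3.27 to 1.63). The cause was not tested. With the replicate number as a block, 124 of 126 values were unchanged in call and direction, the exceptions being the interactions of aspartate for *Ccrl2* and of AOA for *Cd68*. Depth limits *Cxcl9*, *Ccl3* and every gene but *Ccl2* and *Ccl7* without HT-DNA.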
